A study of Mus musculus with 16 samples.

Results

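Cytochrome P450 families 1 to 3 are the heme enzymes with which the liver oxidises drugs, steroids, fatty acids and other lipophilic compounds. The genes described here are those of the liver count table whose symbol is Cyp, a family number from 1 to 3, a letter and a number, except the bile acid enzyme *Cyp2c70*, that reached 1 CPM (reads scaled to a common library size) in 4 or more of 16 libraries. Of all 52143 genes listed, 57 had such a symbol and 39 met the level, whereas 18 stayed below it and 5 of these had no count in any library. *Cyp2d11*, with 4 libraries at that level, was just inside, and *Cyp2b13*, with 3, was just outside. The rule used the level alone and no comparison between groups.

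The libraries were made from livers of male C57BL6/J mice, 6 weeks old at the start, kept for 12 weeks on either chow or a diet with 60% fat (HFD). During that time they were injected every 2 weeks under the skin with 3 mg/kg of a siRNA against fibroblast growth factor receptor 4 (FGFR4 KD) or with saline. The groups had 4 libraries each. Chow and HFD are the saline groups, and Chow/FGFR4 KD and HFD/FGFR4 KD those with the siRNA. The siRNA carried N-acetylgalactosamine, a sugar that the asialoglycoprotein receptor of hepatocytes takes up, and the control mice received saline and no control siRNA, so that silencing of *Fgfr4* and injection of a siRNA as such cannot be told apart. The labels number the samples of a group and do not name the animals, and p-values measure only the spread between these samples.

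Microsomal P450 enzymes sit in the endoplasmic reticulum and take their electrons from P450 oxidoreductase. Many of their genes lie in tandem clusters of near copies and are under the control of ligand-activated receptors: the aryl hydrocarbon receptor for family 1, CAR for *Cyp2b* and part of *Cyp2c*, and PXR for *Cyp3a*. Several are also zonated, with most in hepatocytes around the central vein and *Cyp2f2* around the portal vein, and several differ between male and female mice under the pattern of growth hormone release.

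The promoters of 33 of the 39 genes were found by symbol among the RefSeq sequences of build GRCm38.p6. Each runs from 250 bases before the RefSeq start of the gene to 50 after it. That start can differ from the annotation used for the gene clusters below, in which *Cyp2c29* begins at 39269405. The neighbours *Cyp2c29* and *Cyp2c38* on chromosome 19 are shown since their mRNA changed in opposite directions on HFD, and *Cyp3a11* since it had the steepest loss among the abundant members. Capitals mark the letters TATAAA (the TATA box) and AGGTCA (a half-site of nuclear receptors), searched on both strands, where a site on the other strand reads TTTATA or TGACCT. The windows are chr19:39286835-39287134 (plus strand) for *Cyp2c29*, chr19:39463026-39463325 (minus strand) for *Cyp2c38* and chr5:145879805-145880104 (minus strand) for *Cyp3a11*.
Cyp2c29: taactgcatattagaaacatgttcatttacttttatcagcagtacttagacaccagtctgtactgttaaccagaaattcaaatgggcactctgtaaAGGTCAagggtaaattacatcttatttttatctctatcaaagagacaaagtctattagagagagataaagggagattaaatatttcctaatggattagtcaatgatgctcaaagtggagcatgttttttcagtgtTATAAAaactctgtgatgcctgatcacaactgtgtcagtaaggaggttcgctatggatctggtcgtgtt
Cyp2c38: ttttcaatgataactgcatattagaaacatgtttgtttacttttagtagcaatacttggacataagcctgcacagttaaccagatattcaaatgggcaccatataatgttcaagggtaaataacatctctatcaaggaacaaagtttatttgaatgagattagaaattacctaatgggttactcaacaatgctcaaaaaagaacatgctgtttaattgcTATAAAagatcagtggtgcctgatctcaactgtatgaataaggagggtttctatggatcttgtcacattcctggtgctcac
Cyp3a11: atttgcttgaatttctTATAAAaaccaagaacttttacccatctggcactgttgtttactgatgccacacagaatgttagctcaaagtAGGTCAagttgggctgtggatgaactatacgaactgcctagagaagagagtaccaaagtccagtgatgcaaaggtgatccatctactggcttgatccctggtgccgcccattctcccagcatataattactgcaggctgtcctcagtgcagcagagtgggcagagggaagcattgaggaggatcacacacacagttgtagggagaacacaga
The windows of *Cyp2c29* and *Cyp2c38* were identical at 76.0% of their bases, and both hold TATAAA, 19 bases before the start of *Cyp2c29* and 31 before that of *Cyp2c38*. In the window of *Cyp3a11* TATAAA lies 234 bases before the start. AGGTCA was found 154 bases before the start of *Cyp2c29* and 162 before that of *Cyp3a11*, and not in the window of *Cyp2c38*. TATAAA was present in 21 of 33 members (63.6%) and in 15.7% of 27025 promoters of all genes, and AGGTCA in 12 of 33 (36.4%) and 18.1%. The letters TTATGNAA, which the clock output factors and C/EBP can bind, were in 3 members (9.09%) and 3.99% of all promoters. These matches are descriptions of the sequence and not measurements of binding.

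Near copies set a limit on what the counts can separate, since the estimates divide reads that fit several transcripts. The coding sequences of *Cyp2c50* and *Cyp2c54* were 95.2% identical over 1470 bases, and the pair is shown since these neighbours differed in how far they changed. The stretch from base 791 to 850 of the coding sequence is the window of 60 bases with most differences. It is therefore not typical of the pair. Capitals mark the 11 bases that differ.
Cyp2c50: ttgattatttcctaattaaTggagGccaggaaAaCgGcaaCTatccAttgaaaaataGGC
Cyp2c54: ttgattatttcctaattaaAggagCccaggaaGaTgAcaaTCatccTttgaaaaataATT
Of the words of 31 bases in the transcripts of *Cyp2c54*, 42.3% were also found in another gene. The share was 72.6% for *Cyp2c40*, 67.6% for *Cyp2c67*, 64.9% for *Cyp2c69*, 58.9% for *Cyp2a4* and 54.6% for *Cyp2a5*, against 10.5% for *Cyp2c29*, 15.8% for *Cyp3a11* and 16.6% for *Cyp2c38*. For *Cyp3a59*, whose coding sequence was 97.5% identical to that of *Cyp3a25*, it was 49.9%. For *Cyp2a22*, 97% identical to the more abundant *Cyp2a12*, it was 34.6%. Values of the genes with high shares are uncertain for this reason.

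Total counts ran from 3445949 to 5976449 per library. *Fgfr4* had 27.9, 25.8, 36.3 and 28.9 CPM in Chow, 5.95, 6.17, 4.24 and 2.76 in Chow/FGFR4 KD, 30.1, 28.6, 21.8 and 22.4 in HFD and 2.82, 2.43, 5.31 and 4.4 in HFD/FGFR4 KD, so that each KD library lay below each saline library. The summed level of 5 hepatocyte markers was 57806 to 66396 CPM in Chow and 57476 to 68764 in HFD. Most of that sum was *Alb* (mean 46637 CPM in Chow and 50214 in HFD), and 2 of the 5 markers fell in HFD. Among the 16 libraries 3 stood apart. Chow 3 had intestinal and biliary markers that were lower in all other libraries (*Vil1* 13.2 CPM, *Krt20* 9.74, *Epcam* 10.1), Chow/FGFR4 KD 4 had the acute phase mRNA *Saa2* at 2378 CPM, and HFD/FGFR4 KD 1 was close to chow for several P450 genes. Without these 3 libraries the counts of called members were 23 instead of 22 for the diet in saline mice, 11 instead of 12 for the diet in KD mice and 3 instead of 2 for KD on HFD. The genes changed too. For KD on HFD *Cyp2c54* lost its call (limma-voom, adjusted p = 0.32), and *Cyp2c55* (adjusted p = 0.11) and *Cyp3a11* (adjusted p = 0.23) gained one. For the diet in KD mice *Cyp2e1* and *Cyp2b10* lost theirs. Levels are CPM on TMM-scaled library sizes. A gene was called at p under 0.05 and a Benjamini-Hochberg adjusted p under 0.25 over all 11324 genes tested (limma-voom), the threshold of the study, and 33 of the 39 members passed its level filter of no more than 4 libraries under 1 CPM.

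In Chow the 39 genes together had 17171, 17030.0, 19760.0 and 17359 CPM in the 4 libraries, which was 1.42% to 2.04% of all counts. *Cyp2e1*, which oxidises ethanol and other small molecules, made up 24.9% to 29.9% of that sum, and *Cyp3a11*, the main drug and steroid hydroxylase of its family, 23.8% to 26.1%. Per kilobase of the longest transcript *Cyp2e1* had 2622 ± 404 CPM (SD, n = 4) and *Cyp3a11* 1574 ± 101. They were followed by *Cyp2d9*, a male-predominant steroid hydroxylase (651 ± 17.6), *Cyp2f2*, known for activating naphthalene (602 ± 72), *Cyp2d10* (367 ± 25.9) and the arachidonic acid epoxygenase *Cyp2c29* (366 ± 60). The last pair differed by less than their SD. In HFD the sum was 11891, 14980.1, 10743 and 13296 CPM, below every Chow library. With scaling to library totals the sums overlapped, at 14190.3 to 20350.0 CPM in Chow and 12031 to 15713 in HFD. *Cyp3a11* held the sixth place per kilobase with 239.5 ± 145 CPM while *Cyp2e1* stayed first with 3159 ± 719.6.

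**Figure D1:**
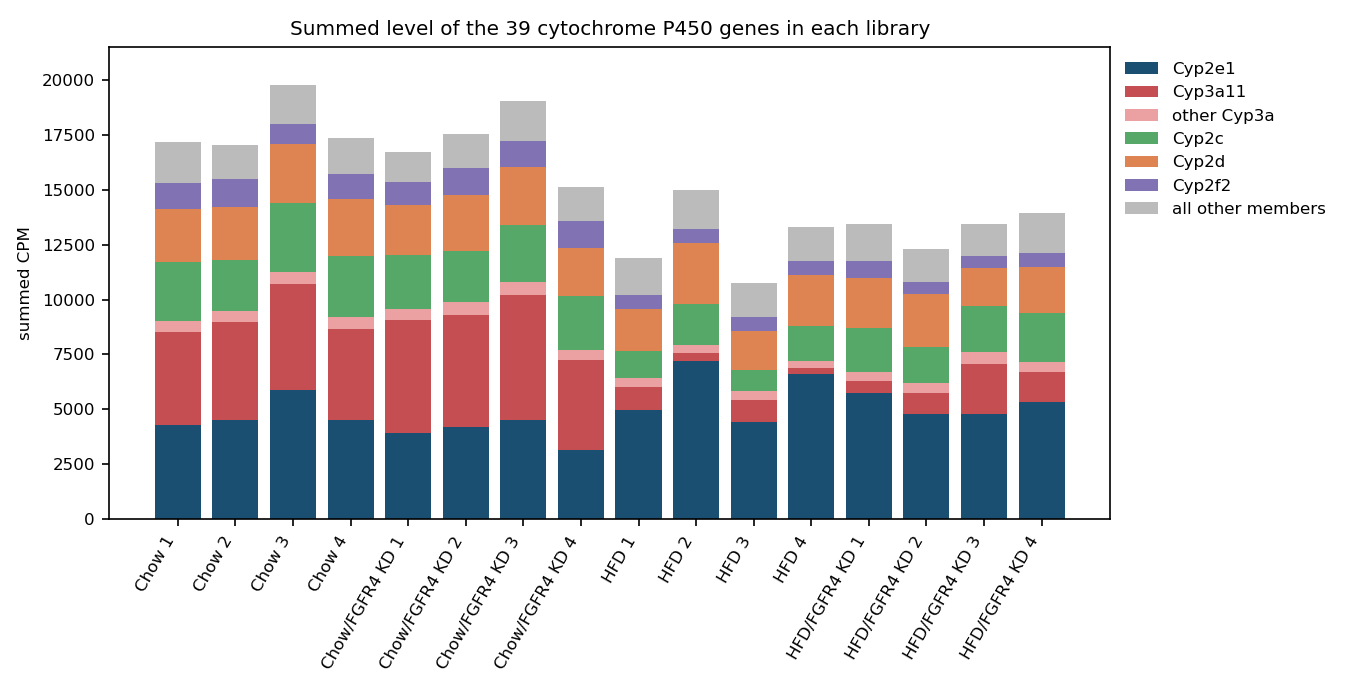
Summed level (CPM, vertical axis from 0) of the 39 cytochrome P450 genes in each of 16 libraries, split into *Cyp2e1*, *Cyp3a11*, other *Cyp3a* genes, the *Cyp2c* and *Cyp2d* subfamilies, *Cyp2f2* and all other members. The sum is 17030.0 CPM or more in Chow and 14980.1 or less in HFD, and the *Cyp3a11* segment is much shorter in every HFD library.

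HFD in saline mice lowered most of the abundant P450 mRNAs outside *Cyp2e1*. Of 33 members tested, 18 fell (54.5%) and 4 rose (12.1%), while of all genes 12.7% fell and 13.3% rose. The median log2 fold change was -0.37 over the members and 0.01 over all genes, and 13 members had an adjusted p under 0.05. The share of all genes at that stricter level is not set beside this count. In 17 members the 4 HFD libraries did not overlap the 4 Chow libraries, which held for 16.1% of all genes. Fewer cells of a type and less RNA per cell cannot be told apart in whole liver RNA. When libraries were scaled to their totals instead of TMM, the median of all genes moved to 0.29 and the share of calls that were higher from 51.2% to 92.1%. Under that scaling 10 members fell and 8 rose. The calls of *Cyp2c50*, *Cyp2c67*, *Cyp2c68*, *Cyp2d9*, *Cyp2d10*, *Cyp3a13*, *Cyp3a25* and *Cyp3a59* were lost, and *Cyp2a12*, *Cyp2d22*, *Cyp2d40* and *Cyp2e1* were called higher.

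In the *Cyp3a* subfamily, whose genes are classical targets of PXR, all 4 tested members fell. *Cyp3a11* had 4265, 4453, 4784 and 4135 CPM in Chow and 1033, 353, 1009.8 and 289 in HFD. The groups were far apart, and HFD 1 and HFD 3 lay above HFD 2 and HFD 4. The fall was 7.73-fold (log2 fold change -2.95, SE 0.41, adjusted p = 0.00065). *Cyp3a59* had 27.6, 24.1, 23 and 22.2 CPM in Chow and 15.9, 8.56, 19.1 and 7.02 in HFD, with the same libraries low. *Cyp3a25* (log2 fold change -0.44) and *Cyp3a13* (-0.34) fell less, and the call of *Cyp3a25* was lost without HFD 4.

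The *Cyp2c* subfamily holds epoxygenases and hydroxylases of arachidonic and linoleic acid, and 9 of its 10 tested members fell. *Cyp2c29* had the smallest p of all members, with 974, 828, 1220.2 and 1106 CPM in Chow and 349, 426, 245 and 367 in HFD. It fell 3.0-fold (-1.58, SE 0.17, adjusted p = 0.0001), and no HFD library reached a Chow library. *Cyp2c54* had 184, 145, 227 and 201 CPM in Chow and 16.4, 109.7, 8.47 and 91.3 in HFD. Here the HFD libraries themselves spanned 13.0 times, with HFD 1 and HFD 3 low (log2 fold change -2.49, SE 0.54, adjusted p = 0.0093).

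The near copy *Cyp2c50* had 648, 493, 739 and 582 CPM in Chow and 291, 587, 201 and 454 in HFD, and HFD 2 reached the range of Chow (-0.78, SE 0.24, adjusted p = 0.048). The ratio of *Cyp2c54* to *Cyp2c50* within a library was 0.28, 0.29, 0.31 and 0.34 in Chow and 0.056, 0.19, 0.042 and 0.20 in HFD, which describes the unequal change of this pair without a test. *Cyp2c55* had 7.59, 7.83, 6.29 and 9.47 CPM in Chow and 2.02, 1.63, 2.76 and 1.01 in HFD and fell 4.11-fold (adjusted p = 0.007). *Cyp2c37* fell 2.05-fold and *Cyp2c23*, an epoxygenase gene that lies apart from the cluster, 1.73-fold. *Cyp2c40*, which is female-predominant, had 20, 23.3, 5.61 and 16.2 CPM in Chow and 2.24, 2.55, 1.0 and 1.65 in HFD (-2.93, SE 0.77), and its near copies *Cyp2c67* (-0.52) and *Cyp2c68* (-0.37) fell less.

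*Cyp2c38* rose, the 1 of 10 tested *Cyp2c* members that did. It had 18.2, 18, 40.7 and 22 CPM in Chow and 92.6, 53.8, 86.6 and 66 in HFD, a rise of 3.1-fold (1.63, SE 0.32, adjusted p = 0.0055). Each HFD library lay above each Chow library, of which Chow 3 was the highest. Within a library the ratio of *Cyp2c38* to *Cyp2c29* went from 0.019, 0.022, 0.033 and 0.020 in Chow to 0.27, 0.13, 0.35 and 0.18 in HFD. The coding sequences of the pair were 89.1% identical.

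**Figure D2:**
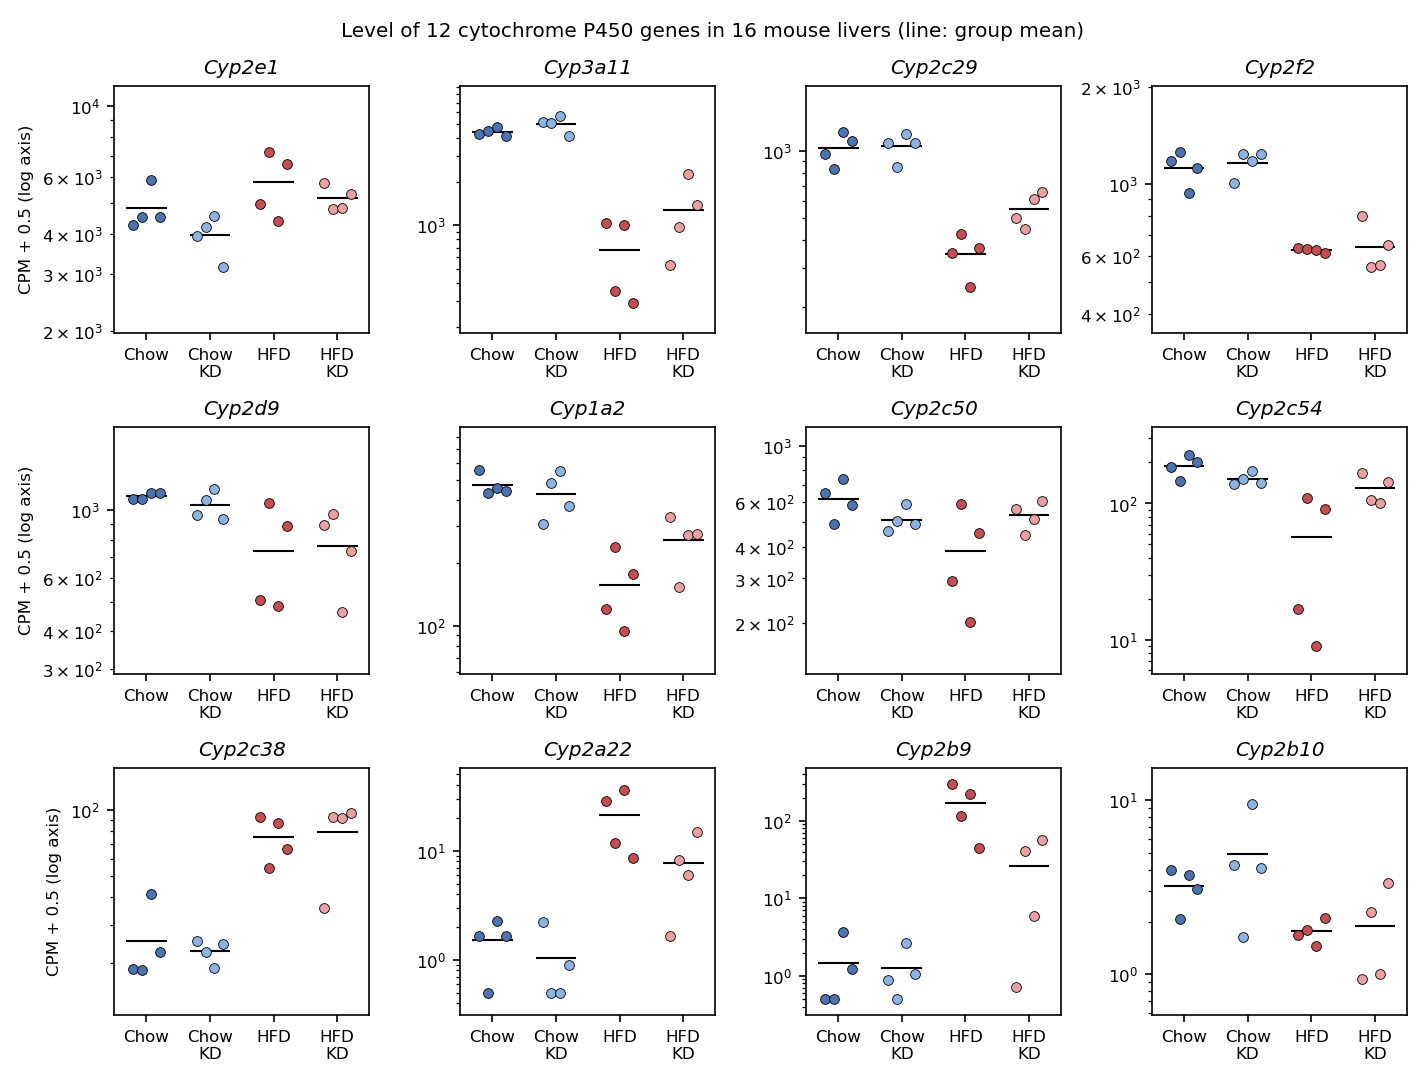
Level of 12 cytochrome P450 genes in each library by group (vertical log axis: CPM + 0.5, points: 4 libraries of a group, line: group mean; Chow KD and HFD KD are the FGFR4 KD groups). *Cyp3a11*, *Cyp2c29*, *Cyp2f2* and *Cyp1a2* are lower in every HFD library than in every Chow library, *Cyp2c38*, *Cyp2a22* and *Cyp2b9* are higher, and *Cyp2e1* overlaps.

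*Cyp1a2*, the family 1 enzyme of caffeine and aromatic amines, had 558, 433, 455 and 439.8 CPM in Chow and 120.3, 238, 93.5 and 176 in HFD. It fell 3.18-fold (-1.67, SE 0.27, adjusted p = 0.0018). *Cyp2f2* had 1179, 1254, 939 and 1122 CPM in Chow and 634, 630.1, 629 and 614 in HFD. The highest HFD value was 1.03 times the lowest, and all 4 lay below all of Chow (fall of 1.78-fold, -0.83, SE 0.11, adjusted p = 0.00062). *Cyp1a2* is pericentral and *Cyp2f2* periportal.

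The *Cyp2d* subfamily, relatives of the human debrisoquine hydroxylase, had 3 of 7 tested members that fell and 1 that rose. *Cyp2d9* had 1087, 1091, 1141 and 1141 CPM in Chow and 505, 1057, 484 and 886 in HFD, where HFD 1 and HFD 3 were low and HFD 2 came close to Chow (-0.69, SE 0.24, adjusted p = 0.078). *Cyp2d10* (-0.31) and the scarce *Cyp2d12* (-1.43) also fell, and *Cyp2d10* was not called without HFD 3. *Cyp2d26* went the other way, with 552, 517, 643 and 588 CPM in Chow and 744, 841, 685 and 686 in HFD (0.36, SE 0.08, adjusted p = 0.012). For *Cyp2d22*, *Cyp2d34* and *Cyp2d40* no change was called.

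*Cyp2a* members rose where a change was called. *Cyp2a22* had 1.14, 0, 1.78 and 1.16 CPM in Chow and 28.3, 11.2, 35.3 and 8.03 in HFD, so that a gene near the detection limit on chow became measurable in every HFD library (4.52, SE 1.14, adjusted p = 0.02). It was just inside the filter of the study, with 12 libraries at 1 CPM. Its near copy *Cyp2a12* was far more abundant, and the part of divided reads in the values of *Cyp2a22* was not tested. *Cyp2a5*, the coumarin hydroxylase, had 242, 173, 257 and 156 CPM in Chow and 263, 309.7, 244 and 363 in HFD. The groups overlapped, and its call (0.53, SE 0.23, adjusted p = 0.16) was lost without Chow 2, Chow 4, HFD 2 or HFD 4. *Cyp2a12* had 419.5 ± 27.7 CPM in Chow and 413 ± 37.4 in HFD (SD, n = 4).

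The markers *Cyp2e1* and *Cyp2b10* were not called by limma-voom, and both calls depended on the setting. *Cyp2e1* was called higher without Chow 3, without HFD 3 and without the 3 libraries that stood apart. *Cyp2b10* was called lower by DESeq2, in a fit of only the groups compared, and without Chow 2, Chow/FGFR4 KD 2 or Chow/FGFR4 KD 3. *Cyp2e1* had 4273, 4524, 5903 and 4528 CPM in Chow and 4966, 7195, 4406 and 6598 in HFD, with a 95% interval of the log2 fold change of -0.07 to 0.58 (adjusted p = 0.31). *Cyp2b10*, the classical target of CAR, was scarce in both groups, at 3.49, 1.57, 3.25 and 2.6 CPM in Chow and 1.18, 1.31, 0.96 and 1.62 in HFD, with an interval of -2.30 to 0.11 (adjusted p = 0.24). None of the 3 *Cyp2j* genes was called, nor were the vitamin D hydroxylase *Cyp2r1* (-0.28, interval -0.61 to 0.05) and the fatty acid hydroxylase *Cyp2u1* (-0.12, -0.54 to 0.30). *Cyp2j5*, the most abundant of its subfamily, had 507 ± 22.2 CPM in Chow and 469.6 ± 56 in HFD.

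**Figure D3:**
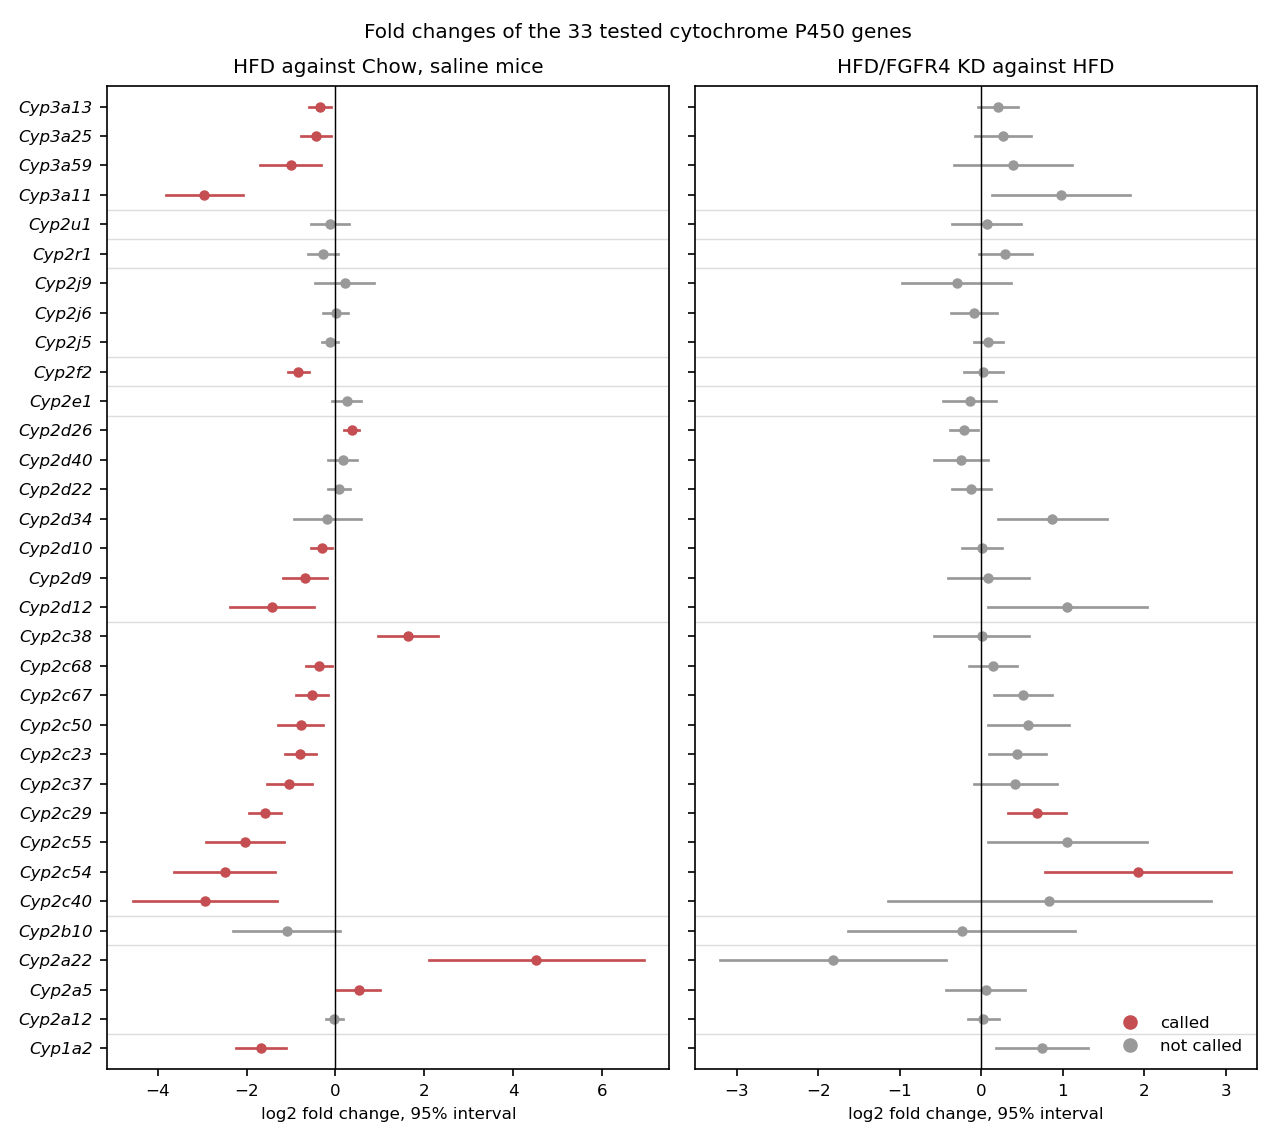
Log2 fold changes (horizontal axes) with 95% intervals of the 33 tested cytochrome P450 genes, ordered by subfamily, for HFD against Chow in saline mice (left) and HFD/FGFR4 KD against HFD (right, other scale); red marks called genes. On the left 18 genes are called lower and 4 higher, and on the right *Cyp2c29* and *Cyp2c54* are called higher.

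The P450 genes varied more between the saline mice on HFD than between those on chow. Over the 33 members the median coefficient of variation was 23.1% in HFD and 12.4% in Chow, while over all 11324 genes it was 14.8% and 16.5%. In HFD 13 members had a coefficient over 30%, and in Chow 5, counts given without the share of all genes. *Cyp3a11* and *Cyp3a59* were higher in HFD 1 and HFD 3 than in HFD 2 and HFD 4, as were *Cyp2c38* and *Cyp2a22*. *Cyp1a2*, *Cyp2c29*, *Cyp2c37*, *Cyp2c50*, *Cyp2c54* and *Cyp2d9* were lower there. HFD 1 with HFD 3 and HFD 2 with HFD 4 were also the closest pairs over 7405 genes. Chi-square divided by its degrees of freedom was 11.4 and 11.7 for them and 34.7 to 58.9 for the other pairs of HFD libraries. The split was thus not particular to the P450 genes. These values were not used to form groups. The collagen mRNA *Col1a1* was at 38.6, 5.89, 41.1 and 8.48 CPM in HFD 1 to HFD 4 and its part in these differences was not tested.

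**Figure D4:**
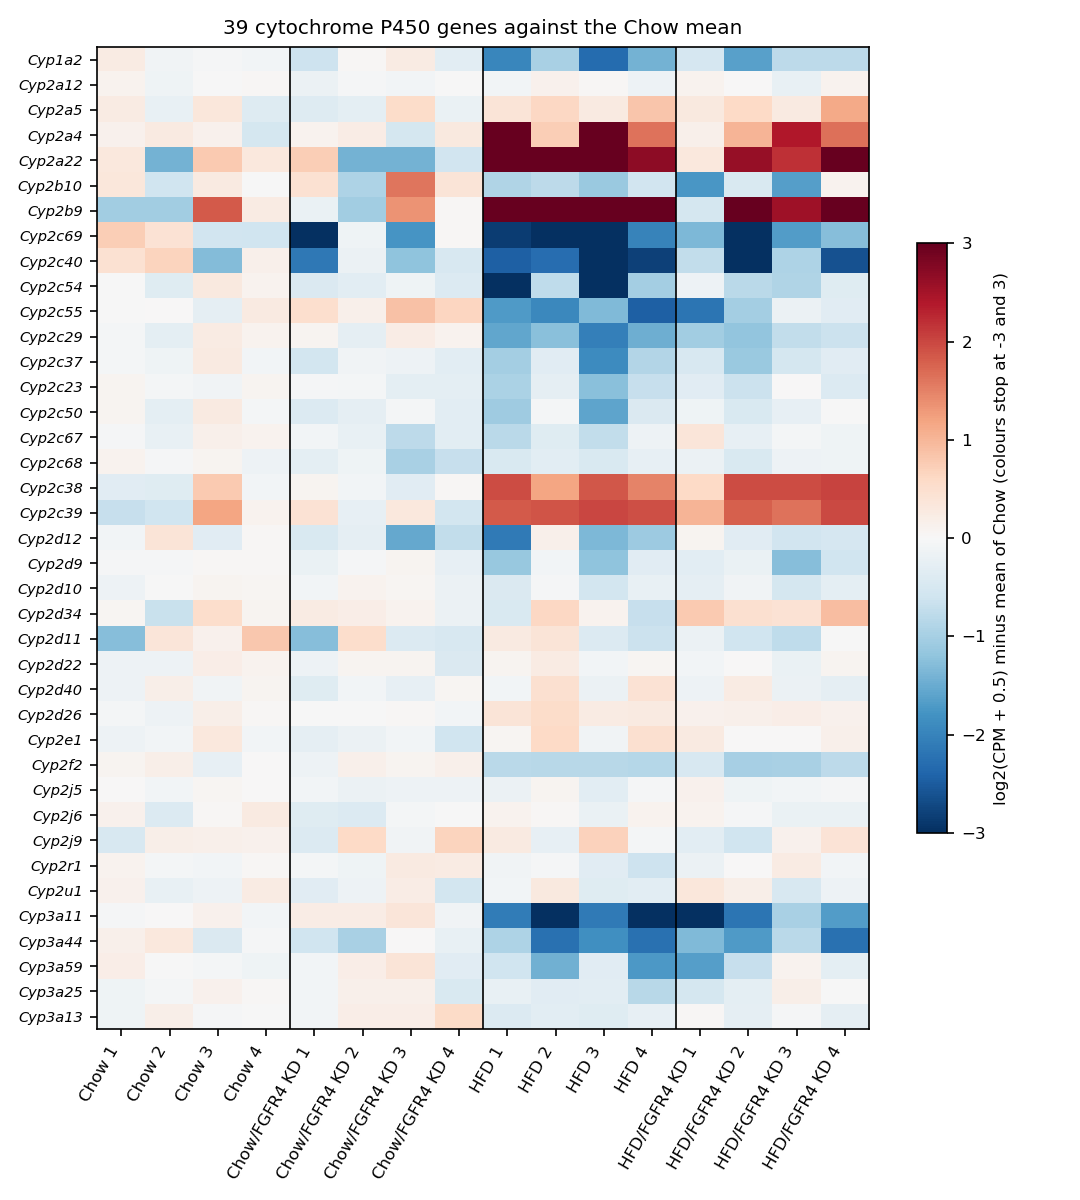
Log2(CPM + 0.5) of the 39 cytochrome P450 genes (rows, by subfamily) in 16 libraries (columns, by group), minus the mean of the 4 Chow libraries, with colours that stop at -3 and 3. *Cyp2c54*, *Cyp2d9* and *Cyp3a11* differ within HFD between libraries 1 and 3 and libraries 2 and 4, and *Cyp2b9* and *Cyp2a22* are near the Chow level in HFD/FGFR4 KD 1.

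Knockdown of FGFR4 on HFD was followed by higher *Cyp2c29* and *Cyp2c54*. These were the 2 members called, both higher, where 1.5% of all genes were higher and 1.64% lower, and neither had an adjusted p under 0.05. *Cyp2c29* had 349, 426, 245 and 367 CPM in HFD and 499, 446, 608 and 657 in HFD/FGFR4 KD, so that each KD library lay above each HFD library. The rise was 1.6-fold (0.68, SE 0.17, adjusted p = 0.10), and every KD library stayed below every Chow library. *Cyp2c54* had 167, 106, 100.2 and 144 CPM in HFD/FGFR4 KD against 16.4, 109.7, 8.47 and 91.3 in HFD. HFD 1 and HFD 3 were far below all KD libraries, HFD 2 lay within the range of KD and HFD 4 just under it (1.93, SE 0.54, adjusted p = 0.18).

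The other members were not called by limma-voom. Besides *Cyp2c29*, DESeq2 called *Cyp1a2*, *Cyp2c55* and *Cyp2c67* higher and *Cyp2d26* lower, and library quality weights called 11 members. In 25 of 33 the log2 fold change was above 0 (median 0.14, all genes 0.00), and in 19 with scaling to library totals. With TMM all 10 tested *Cyp2c* genes and all 4 tested *Cyp3a* genes were above 0, *Cyp2c38* by less than 0.01. *Cyp3a11* had 533, 967, 2240.3 and 1367 CPM in HFD/FGFR4 KD, of which the first and the second lay within the range of HFD (0.97, interval 0.13 to 1.82, adjusted p = 0.37). *Cyp2c67* was just outside the threshold (0.51, adjusted p just over 0.25), and *Cyp1a2* had a log2 fold change of 0.75 (adjusted p = 0.30). *Cyp2a22* had 1.15, 7.67, 5.54 and 14.4 CPM in HFD/FGFR4 KD against 28.3, 11.2, 35.3 and 8.03 in HFD (-1.82, adjusted p = 0.30). *Cyp2d26* was lower in each KD library than in each HFD library, at 624, 637, 653 and 625 CPM. Limma-voom did not call it, whereas DESeq2 (adjusted p = 0.21) and library quality weights (adjusted p = 0.24) called it lower (-0.21, adjusted p = 0.33). It and *Cyp2c29* were the members whose groups did not overlap, 2 of 33, and 6.49% of all genes did not. For *Cyp2e1* the interval was -0.47 to 0.19.

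The count of called members depended on single libraries. It was 10 without HFD 2, 5 without HFD/FGFR4 KD 2, 4 without HFD 4, 3 without HFD/FGFR4 KD 1, 1 without HFD 1 and 0 without HFD 3, HFD/FGFR4 KD 3 or HFD/FGFR4 KD 4. The share of all genes called in the same fits is not set beside these counts. The swing is thus not shown to be particular to the P450 genes. *Cyp2c29* kept a log2 fold change of 0.53 to 0.79 over 18 alternatives (adjusted p from 0.019 to 0.32) and lost its call without HFD 3, HFD/FGFR4 KD 3 or HFD/FGFR4 KD 4 and with scaling to library totals. *Cyp2c54* ranged from 1.20 to 2.53 (adjusted p from 0.036 to 0.48) and lost its call in 10 of 18 alternatives. It was not called by edgeR's quasi-likelihood test (adjusted p = 0.43) or DESeq2 (adjusted p = 0.48). Its call was also lost with scaling to library totals, in a fit of only the groups compared and without the 3 libraries that stood apart. Leaving out HFD 1, HFD 3, HFD/FGFR4 KD 1, HFD/FGFR4 KD 3 or HFD/FGFR4 KD 4 alone removed it as well.

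On chow no member was called after FGFR4 KD, where 0.00883% of all genes were (limma-voom), and 1 member had an unadjusted p under 0.05. The quasi-likelihood test of edgeR and DESeq2 also called none. That member was *Cyp2c68*, with 159, 143, 155 and 132 CPM in Chow and 119, 134, 74.6 and 91 in Chow/FGFR4 KD (log2 fold change -0.52, adjusted p = 0.98). *Cyp3a11* had 5139, 5095, 5683 and 4099 CPM in Chow/FGFR4 KD (interval of the log2 fold change -0.71 to 1.06) and *Cyp2c29* 1083, 848, 1194 and 1091 (-0.32 to 0.40). *Cyp2e1* had 3947, 4212, 4536 and 3158 CPM (-0.60 to 0.04), and *Cyp2b10* 3.77, 1.14, 9.08 and 3.58 with the third library highest (-0.77 to 1.35).

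The difference between the KD effects on HFD and on chow was called for 0.0353% of all genes and for no member by limma-voom. An unadjusted p under 0.05 was found in 8 members, all with a higher log2 fold change of KD on HFD than on chow. That count is given without the share of all genes. The quasi-likelihood test of edgeR called none and DESeq2 called *Cyp2c67* and *Cyp2c68*. For *Cyp2c29* the difference was 0.65 on the log2 scale (SE 0.24, adjusted p = 0.65) and for *Cyp2c54* 2.25 (SE 0.74, adjusted p = 0.58). The effect of KD on these genes is thus not shown to depend on the diet.

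In KD mice HFD lowered 8 members and raised 4 of 33, while of all genes 10.1% fell and 10.1% rose. Since this comparison shares the HFD/FGFR4 KD libraries with that of KD on HFD, its values are given by themselves. *Cyp2f2* had 1009, 1240.2, 1178 and 1236 CPM in Chow/FGFR4 KD and 798, 557, 565 and 651 in HFD/FGFR4 KD (-0.87, SE 0.11, adjusted p = 0.00078). *Cyp3a11* fell 4.44-fold (-2.15, SE 0.41, adjusted p = 0.013), with each library of HFD/FGFR4 KD below each of Chow/FGFR4 KD. *Cyp2c29* fell 1.92-fold (adjusted p = 0.0089) and *Cyp2c55* 2.91-fold (adjusted p = 0.025).

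*Cyp2c38* rose in KD mice as well, from 24.8, 21.9, 18.4 and 24 CPM to 35.3, 92.7, 91.8 and 97 (1.71, SE 0.33, adjusted p = 0.014). *Cyp2a22*, *Cyp2a5* and *Cyp2e1* were the other members called higher. *Cyp2e1* had 5763, 4798, 4812 and 5319.9 CPM, above each Chow/FGFR4 KD library (0.39, adjusted p = 0.16), and lost its call without Chow/FGFR4 KD 4, HFD/FGFR4 KD 1 or HFD/FGFR4 KD 4. *Cyp2b10* fell from 3.77, 1.14, 9.08 and 3.58 to 0.43, 1.77, 0.50 and 2.85 CPM (-1.62, adjusted p = 0.15), a call lost without HFD/FGFR4 KD 3. *Cyp1a2* (-0.76), *Cyp2d10* (-0.28) and *Cyp3a13* (-0.35) completed those that fell, and single libraries decided each call: Chow/FGFR4 KD 3 or HFD/FGFR4 KD 2 for *Cyp1a2*, Chow/FGFR4 KD 2 or 3 or HFD/FGFR4 KD 3 or 4 for *Cyp2d10*, and Chow/FGFR4 KD 4 or HFD/FGFR4 KD 4 for *Cyp3a13*. The call of *Cyp2a5* was lost without HFD/FGFR4 KD 4. *Cyp2c54* was not called, with a log2 fold change of -0.24 and an interval of -1.32 to 0.83.

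Members under the filter of the study were *Cyp2a4*, *Cyp2b9*, *Cyp2c39*, *Cyp2c69*, *Cyp2d11* and *Cyp3a44*, and their folds come from a fit of the 12985 genes with at least 1 CPM in 4 libraries. In that fit 25.1% of all genes were called for the diet in saline mice. These members entered through the group in which they were high, so that nothing is read from how many were called. For the same reason their folds are given as descriptions, without p-values. *Cyp2b9*, female-predominant and a close relative of *Cyp2b10*, had 0, 0, 15.8 and 3 counts in Chow and 2084.3, 701.3, 1461.4 and 218 in HFD. In CPM the HFD libraries had 300.3, 115, 224 and 44 and those of HFD/FGFR4 KD 0.22, 40.3, 5.45 and 56.7, lowest in the first library. In Chow the highest value was that of Chow 3. The log2 fold change of KD on HFD was -4.23 (SE 0.99) and that of HFD in saline mice 8.20 (SE 3.63).

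*Cyp2c39*, a retinoic acid hydroxylase beside *Cyp2c38*, had 1, 1, 10.4 and 3.1 counts in Chow and 25, 22.8, 26.9 and 19.2 in HFD, above in each library (2.44, SE 0.49). *Cyp2a4*, a female-predominant steroid hydroxylase, had 121.2, 4.3, 206.4 and 8.5 counts in HFD, mainly in HFD 1 and HFD 3, and at most 1.5 in a chow library. *Cyp2c69* had 38.5, 23.8, 14.1 and 11.8 counts in Chow and 1.4, 0, 0 and 3.7 in HFD (-4.64, SE 1.5), and *Cyp3a44* 10.4, 9.3, 6.2 and 7.7 and 5.2, 0, 1 and 0 (-3.21, SE 0.71). *Cyp2d11* was at most 1.6 CPM in any library.

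Among members that passed the filter of the study, both directions were found in 3 of the 4 larger gene clusters. Members under that filter also lie there and are not counted for direction. Of all genes 12.7% fell and 13.3% rose, and the clusters were not compared with other neighbouring genes. On chromosome 19 (GRCm38) 11 *Cyp2c* genes lie within 1107 kb, from 39007019 to 40113950. There *Cyp2c38*, which rose, stands between *Cyp2c29* and *Cyp2c67*, which fell. Between *Cyp2b10* and *Cyp2f2* on chromosome 7 (7 genes in 1236 kb, from 25897620 to 27133660) stand *Cyp2a5* and *Cyp2a22*, which rose, while *Cyp2f2* fell. The call of *Cyp2a5* was lost without Chow 2, Chow 4, HFD 2 or HFD 4, and *Cyp2a22* was just inside the filter. The 8 *Cyp2d* genes on chromosome 15 (424 kb) held 3 that fell and 1 that rose. Of 4 *Cyp3a* genes in 339 kb on chromosome 5, all that passed the filter fell.

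**Figure D5:**
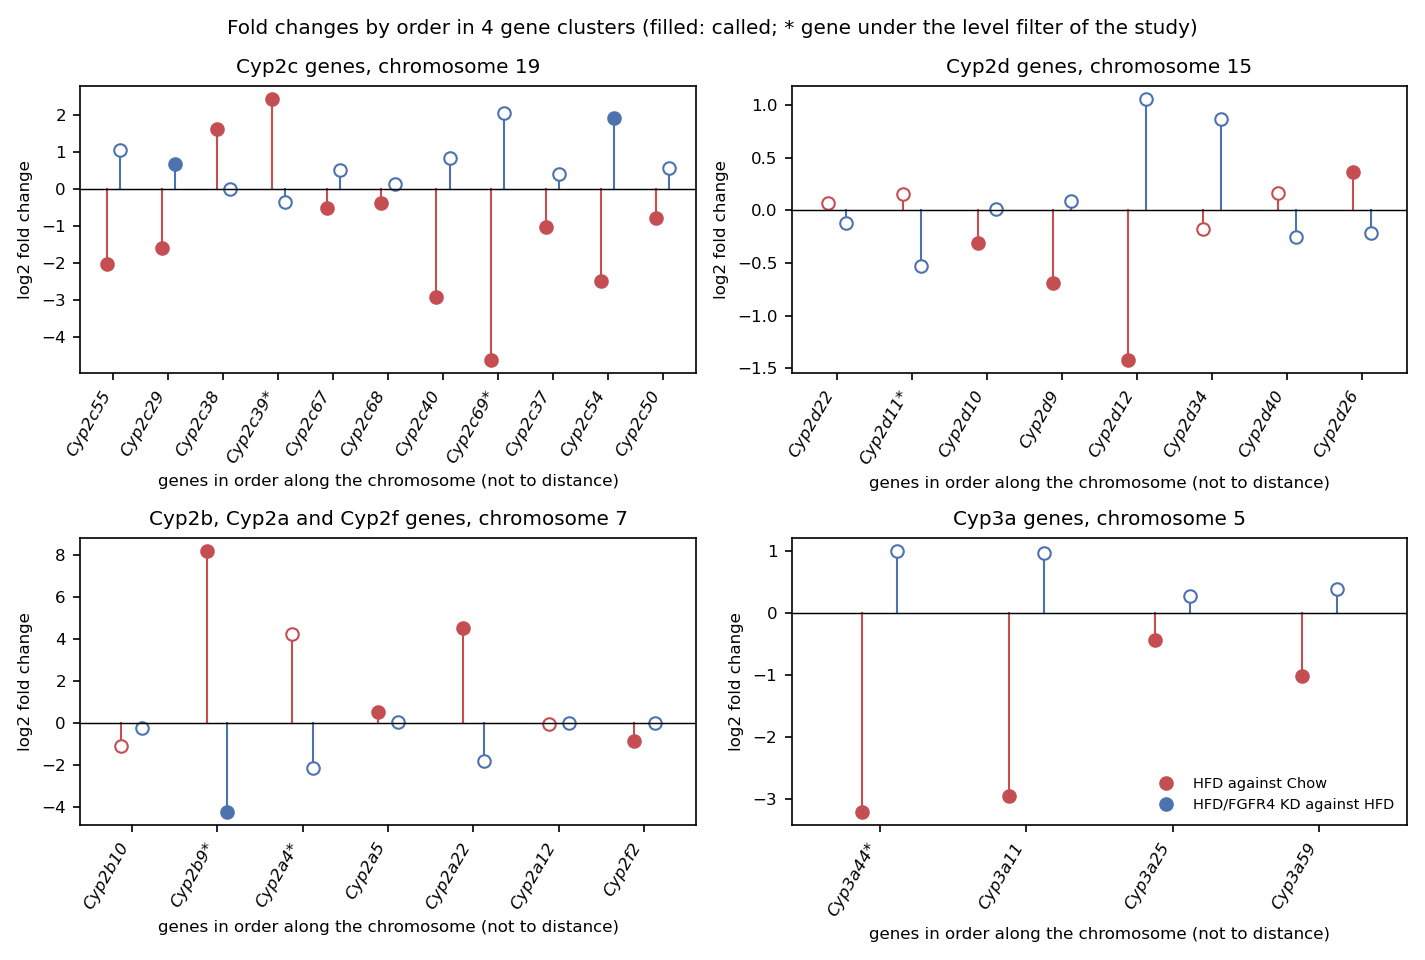
Log2 fold changes (vertical axes, own scale per panel) of the genes in 4 tandem clusters, in their order along the chromosome and not to distance, for HFD against Chow (red) and HFD/FGFR4 KD against HFD (blue). Filled points are called, and a star marks genes under the level filter of the study. *Cyp2c38* rises between *Cyp2c29* and *Cyp2c67*, which fall, and the starred genes are not counted for direction.

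The factors that P450 enzymes and genes depend on were read from fixed lists. None of 5 electron donors and partners was called in HFD, with P450 oxidoreductase (*Por*) at 185 ± 52.4 CPM in Chow and 203 ± 74.4 in HFD (SD, n = 4). Of 6 tested xenobiotic receptors and partners 1 rose: *Nr1i3*, which encodes CAR, with 69.1, 80.6, 139 and 146 CPM in Chow and 137, 197, 169 and 142 in HFD (0.63, SE 0.28, adjusted p = 0.16). *Nr1i2*, which encodes PXR, had an interval of -0.37 to 0.17 and *Ahr* of -0.44 to 0.76. Among CAR-inducible P450 members 5 of 7 fell and *Cyp2a5* rose, while of 11 tested CAR and PXR targets outside the P450s *Aldh1a1* (0.35) and *Aldh1a7* (0.32) rose and none fell. None of 11 heme synthesis and breakdown genes was called, *Alas1* included (-0.75 to 0.85). Of 10 hepatocyte factors *Hnf4a* fell (-0.44) and *Ppara* (0.61) and *Cebpa* (0.25) rose. None of 5 tested factors of sex-biased expression was called.

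Of all genes 12.7% fell and 13.3% rose, and lists were not tested against each other. Of 8 pericentral P450 members 6 fell and 1 rose. Of 6 pericentral genes outside the family *Glul* rose (0.76, adjusted p = 0.00058). Of 6 periportal genes 4 fell, *Cyp2f2* among them. The clock output factors moved strongly with diet: *Dbp* had 2.67, 8.35, 1.01 and 0.71 CPM in Chow and 21.2, 36.9, 52 and 77.9 in HFD (4.32, adjusted p = 0.0034), *Tef* (1.11) and *Hlf* (0.79) rose and *Nfil3* fell (-1.89). All 6 macrophage markers rose, with a summed level of 47.6 to 57.5 CPM in Chow, 89.2 to 162 in HFD and 74.8 to 137 in HFD/FGFR4 KD, and none was at 0. Of 6 stellate and fibroblast markers 3 rose, of 5 endothelial markers 2, and of 5 hepatocyte markers 2 fell. The part of clock factors and of other cells in the P450 results was not tested.

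In KD on HFD, where 1.5% of all genes were called higher and 1.64% lower, calls were found in 6 lists of genes outside the P450s. *Nfil3* (1.16) and the hepatocyte factor *Cebpb* (1.32) rose and *Dbp* fell (-1.09). Of the CAR and PXR targets *Aldh1a1* (-0.46) and *Abcc3* (-0.73) fell, and of 3 tested targets of the aryl hydrocarbon receptor *Nqo1* (-1.02) and *Ugt1a6a* (-0.36) fell. *Por*, *Nr1i2*, *Nr1i3* and *Ahr* were not called in KD on HFD or on chow. Of 5 hepatocyte markers *Ttr* fell (-0.51), as did *Cfd* (-1.57), the 1 adipocyte marker tested. The part of these changes in the P450 results was not tested.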

How the data were processed

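Liver mRNA was sequenced in 16 libraries, 4 in each of 4 groups taken from the labels. The authors deposited estimated counts per gene for 52143 Ensembl genes, made with fastp, kallisto and tximport on mouse build GRCm38 (versions are not given in the sources used here). The labels name a KAPA mRNA kit and the study's methods HTG EdgeSeq, and which was used is not settled by the counts. Kallisto divides reads among similar transcripts, which touches the near copies among the P450 genes. The values came as fractions in part and were not rounded for limma-voom. They were rounded to whole numbers for edgeR and DESeq2.

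Genes with under 1 CPM in more than 4 libraries were left out. TMM factors and limma-voom (limma 3.58.1, edgeR 4.0.16, R 4.3.3) with a mean per group over all 16 libraries gave 5 comparisons, with Benjamini-Hochberg adjustment over 11324 genes. The groups share libraries between comparisons. Fold changes are on the log2 CPM scale, intervals are 95% intervals of the fit, and the code was tested on simulated data. The members and gene lists were chosen with earlier results of these data known. Genes named are the 4 markers, *Fgfr4*, called members with the smallest p, the most abundant member of each subfamily, called members that went against their subfamily, members under the filter, and called genes of the lists. Alternatives were the quasi-likelihood test of edgeR, DESeq2 1.42.0, other scalings and filters, library weights, a replicate block and leaving out single libraries. Leaving out 3 libraries together was chosen after seeing the data. No 2 libraries of a group were alike within sampling noise (over 24 pairs, chi-square divided by its degrees of freedom was at least 7.59). The number of libraries and their depth limit the precision for genes of a few CPM.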

Additional observations from a re-analysis of the deposited data

Results flagged for a closer look

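In 5 of 160 groups of 4 values the highest or lowest library lay apart from the others by more than Dixon's 95% limit, where chance gives about 8. *Cyp2a5* was at 298.8 CPM in Chow/FGFR4 KD 3, and the next value was 176. *Cyp2c38* was at 35.3 CPM in HFD/FGFR4 KD 1, while the other 3 libraries of the group had 91.8 to 97.0. *Cyp2e1* was at 5903 CPM in Chow 3, against 4273 to 4528 in the others, and the summed level of all members in that library was 19760.0 CPM, with 17359 next. *Cyp2j9* was at 2.46 CPM in Chow 1, where the nearest value was 4.02.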

How the results depend on the processing

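Signs of members that were not called moved with the setting. For KD on HFD the members above 0 were 25 of 33, 19 with scaling to library totals and 21 without HFD 3 or HFD/FGFR4 KD 2. For HFD in saline mice they were 9, and 13 with scaling to totals. For KD on HFD, where 2 members were called, edgeR's quasi-likelihood test called 1, DESeq2 5, scaling to library totals 0, library quality weights 11, a fit of only the groups compared 1 and an adjusted p under 0.05 0. Leaving out single libraries gave 0 to 10, a range given without the share of all genes, and the cause was not tested. At an adjusted p under 0.05, 13 of 22 members remained for HFD in saline mice and 5 of 12 for HFD in KD mice. Leaving out single libraries gave 20 to 23 and 8 to 14 members. The share of all genes is not set beside these counts. For the difference between the KD effects DESeq2 called 2 members and limma-voom 0. With a replicate block, the diet called 22 members in saline mice and 14 in KD mice, the knockdown 2 on HFD and 0 on chow, and the difference 0. The replicate numbers did not pair the samples: correlations of deviations between libraries of the same number ran from -0.297 to 0.244, 7 of 24 were over 0.1, and 4 of 16 libraries correlated best with their own number. Without a filter 24944 genes were tested for HFD in saline mice and 5324 called, against 2939 of 11324, and with scaling to totals 4306. For KD on HFD the counts over all genes were 356, against 776 with quality weights and 114 with scaling to totals.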
